A study of Mus musculus with 2 samples.

Results

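OX40-high T cells are described here in 2 single-cell libraries of mouse liver tumours, 1 from shSrsf10 mice and 1 from shCtrl mice. They were chosen by measured counts of unique molecular identifiers (UMIs, the number of distinct RNA molecules read in a cell). A cell had at least 3 UMIs of Tnfrsf4, which encodes OX40, and at least 2 UMIs over Cd3d, Cd3e and Cd3g. It had no UMI of Cd8a, Cd8b1 or Foxp3, did not hold both Ikzf2 and Ctla4, and had under 2 UMIs over the division genes Mki67, Top2a and Birc5. There were 234 such cells, 186 in shSrsf10 and 48 in shCtrl, among 5179 barcodes that passed the limits on genes, mitochondrial UMIs and keratin and 17473 deposited barcodes. Since Tnfrsf4 itself and the other genes of the rule chose the cells, their levels are descriptions.

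The tumours came from mice carrying a short hairpin RNA against Srsf10, a splicing factor, or from control mice, called WT in one label and shCtrl in the other. The labels disagree on the preparation. The series text names enzyme digestion, cell sorting with no gate stated and a 5′ kit, and the sample protocol names a liver suspension spun slowly and a 3′ kit. Age, sex, tumour model and the number of mice pooled are not given in the sources used here, nor is which cells carried the hairpin.

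Each group was 1 library, so no difference between the groups has a replicate check and no p-value is given. Intervals are 95% intervals and cover counting error only. Levels are given as CPM, the usual depth-scaled count, a gene's UMIs relative to all UMIs of the cells. Srsf10 was at 22.5 CPM (21.7 to 23.3) over all barcodes passing the gene and mitochondrial limits in shSrsf10, against 46.4 CPM (45.3 to 47.5) in shCtrl. In OX40-high cells it had 30 UMIs or 50.8 CPM in shSrsf10 and 7 UMIs or 48.8 CPM in shCtrl, a log2 ratio of 0.06 with an interval of -1.16 to 1.49. The lower level of the targeted transcript seen over the whole library was therefore not detectable in the OX40-high cells at this depth. The 2 libraries shared 67 barcodes, and 0 of them belonged to OX40-high cells.

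OX40 is a costimulatory receptor of the tumour necrosis factor (TNF) receptor superfamily. It appears on T cells after antigen receptor stimulation, binds OX40 ligand on antigen-presenting cells, and signals through TRAF adaptors and NF-kappaB to support survival and cytokine production. In mice, regulatory T cells carry it as well, so high OX40 alone does not separate helper from regulatory cells. Tnfrsf4 lies on chromosome 4 at 156013843 to 156016612 on the plus strand (GRCm38, GENCODE vM21), 9551 bases before Tnfrsf18, which encodes the related receptor GITR and lies on the same strand.

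The OX40-high cells made up 10.0% of T cells in shSrsf10 (186 of 1860, 8.67% to 11.5%) and 14.4% in shCtrl (48 of 333, 10.8% to 18.7%). The difference was -4.41 percentage points, with an interval of -8.79 to -0.75. Among conventional T cells without a Cd8 UMI, the share was 30.0% in shSrsf10 (186 of 619) and 31.0% in shCtrl (48 of 155), a difference of -0.92 points (-9.34 to 6.79). With Cd8-bearing, regulatory and cycling cells left out of the denominator, no difference was thus detectable. Of all kept barcodes, OX40-high cells were 6.13% in shSrsf10 and 2.24% in shCtrl. The gate and tumour load behind that share are not given, so what it reflects was not tested.

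The cells were shallow. They held 590624 UMIs in shSrsf10 and 143552 in shCtrl, with medians of 2535 and 2213 UMIs and 1010 and 965 genes per cell. The median cell had 5 Tnfrsf4 UMIs in each library, and the highest had 17 in shSrsf10 and 14 in shCtrl. Summed over the cells, Tnfrsf4 was at 1959 CPM (1848 to 2075) in shSrsf10 and 1867 CPM (1650.1 to 2104) in shCtrl.

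The label of conventional T cells was checked against marker genes. Trac, the alpha chain of the antigen receptor, was read in 162 of 186 shSrsf10 cells and 37 of 48 shCtrl cells. Cd4 was read in 104 of 186 cells in shSrsf10 (55.9%) and 33 of 48 in shCtrl (68.8%), while gamma-delta receptor and fibroblast markers were at 0 in both. The other CD4 lineage markers, Zbtb7b and Cd40lg, added little. Any of the 3 was read in 121 of 186 cells in shSrsf10 and 34 of 48 in shCtrl. Zbtb7b was not read in shCtrl, and Cd40lg was lower than in OX40-low CD4 cells in both libraries. A missing Cd4 UMI in cells of this depth does not show that Cd4 was absent, and Cd8 transcripts can be missed in the same way. Among non-cycling T cells with a Cd8 UMI, 21 of 833 in shSrsf10 (2.52%) and 4 of 72 in shCtrl (5.56%) had at least 3 Tnfrsf4 UMIs.

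The word activated in the label was checked as well. Genes induced by antigen receptor signalling went both ways against OX40-low CD4 cells. Cd69, an early activation antigen, was at 67.7 CPM in OX40-high cells against 250 CPM in OX40-low CD4 cells in shSrsf10, and at 20.9 CPM against 154 CPM in shCtrl. The log2 ratios were -1.89 (-2.50 to -1.29) and -2.88 (-5.43 to -0.82). Nr4a1, another immediate response gene, had ratios of -1.58 in shSrsf10 and -0.78 in shCtrl (-2.01 to 0.52). Batf, a factor of activated T cells, had ratios of 0.57 (0.23 to 0.93) and 1.43 (0.55 to 2.43), and Irf8 and Nr4a2 had ratios of 0.80 (0.08 to 1.58) and 0.79 (0.14 to 1.5) in shSrsf10. The cells are called by their OX40 level here, with no claim that they had just been stimulated.

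RNA of other lineages was present and is given with the results it touches. Macrophage markers summed to 566 CPM in 9 cells of shSrsf10 and 892 CPM in 10 cells of shCtrl. Hepatocyte and epithelial markers summed to 576 CPM in shSrsf10 and 1721 CPM in shCtrl, spread over 150 of 186 and 46 of 48 cells. Natural killer markers had 2 UMIs in shSrsf10 and 4 in shCtrl, and dendritic cell markers were at 223 CPM in shSrsf10 and at 0 in shCtrl. Cells with clear macrophage, neutrophil, dendritic or B cell RNA numbered 6 of 186 in shSrsf10 and 5 of 48 in shCtrl.

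To see what goes with OX40, the cells were set against OX40-low CD4 T cells of the same library. These had a Cd4 UMI, at most 2 Tnfrsf4 UMIs and otherwise met the same rule, and they numbered 121 in shSrsf10 and 30 in shCtrl. Their median depth was 1923 and 1480.5 UMIs. Lgals7, Dusp14, Il1r2, Xcl1 and Capg had been picked as markers of the OX40-high cells from these same data, so their direction is a description. Over all genes measured in both libraries (at least 20 UMIs over the cells compared), 37 of 1218 (3.04%) were at least 2-fold higher in OX40-high cells in both libraries and 5 (0.411%) at least 2-fold lower in both.

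Dusp14 encodes a phosphatase that dampens MAP kinase signalling downstream of the T cell receptor. In shSrsf10 it was at 188 CPM (155 to 226) in OX40-high cells, with 111 UMIs in 38 cells, against 16.1 CPM in OX40-low CD4 cells. In shCtrl it was at 341 CPM (253 to 451), with 49 UMIs in 18 cells, against 154 CPM. The log2 ratios were 3.54 (2.14 to 5.44) and 1.15 (0.06 to 2.44), so the OX40-high cells had the higher level in both libraries.

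Lgals7, which encodes galectin-7, a sugar-binding protein best known from stratified epithelia, was at 161 CPM (130 to 197) in OX40-high cells against 24.2 CPM in OX40-low CD4 cells in shSrsf10. In shCtrl it was at 557 CPM (442 to 694) against 115 CPM. The ratios were 2.73 (1.56 to 4.21) and 2.27 (1.09 to 3.76). It was a minority transcript, read in 15 of 186 OX40-high cells (8.06%) in shSrsf10 and 18 of 48 (37.5%) in shCtrl. With every cell thinned to 1000 UMIs, 5.59% of OX40-high cells in shSrsf10 and 27.7% in shCtrl had a Lgals7 UMI, against 0.0474% and 0% of epithelial cells, whose median depths before thinning were 26420.5 and 16986 UMIs. Without thinning, 0.925% and 0.562% of epithelial cells had a Lgals7 UMI.

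Il1r2 encodes the decoy receptor for interleukin-1, which binds the cytokine without signalling. It was at 149 CPM (119 to 184) in OX40-high cells against 12.1 CPM in OX40-low CD4 cells in shSrsf10, and at 195 CPM (130 to 282) against 76.8 CPM in shCtrl. The ratio of 3.62 in shSrsf10 had an interval of 2.03 to 5.93, while the ratio of 1.34 in shCtrl had one of -0.17 to 3.32 and cannot be told from no difference at this depth. Capg, an actin filament capping protein, had 349 CPM in 73 OX40-high cells against 117 CPM in OX40-low CD4 cells in shSrsf10, and 376 CPM in 21 cells against 192 CPM in shCtrl. Its ratios were 1.58 (1.01 to 2.19) and 0.97 (-0.02 to 2.11). Capg was also read in many epithelial cells, where free RNA and the cells' own expression cannot be told apart here. After thinning, 22.3% of OX40-high cells in shSrsf10 and 25.5% in shCtrl had a Capg UMI, against 10.1% and 7.74% of epithelial cells. For Dusp14 the same shares were 8.38% and 19.1%, against 0.142% and 0.154% of epithelial cells, and for Il1r2 4.47% and 17.0%, against 0.427% and 0.211%. Before thinning, 80.7% and 65.7% of the much deeper epithelial cells had a Capg UMI, against 39.2% and 43.75% of OX40-high cells. The unthinned epithelial shares were 4.58% and 2.08% for Dusp14 and 2.84% and 0.997% for Il1r2.

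Xcl1, the chemokine lymphotactin that attracts cross-presenting dendritic cells, was carried by few cells. It had 78 UMIs in 14 OX40-high cells (132 CPM) in shSrsf10 and 220 UMIs in 9 cells (1533 CPM) in shCtrl, and it was read in 1 and 2 OX40-low CD4 cells. The ratios of 5.03 and 5.32 thus rest on a handful of cells. One shCtrl cell held 141 of the 220 UMIs (64.1%). Against OX40-low cells taken without the Cd4 requirement, the shSrsf10 ratio was -0.20.

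**Figure D1:**
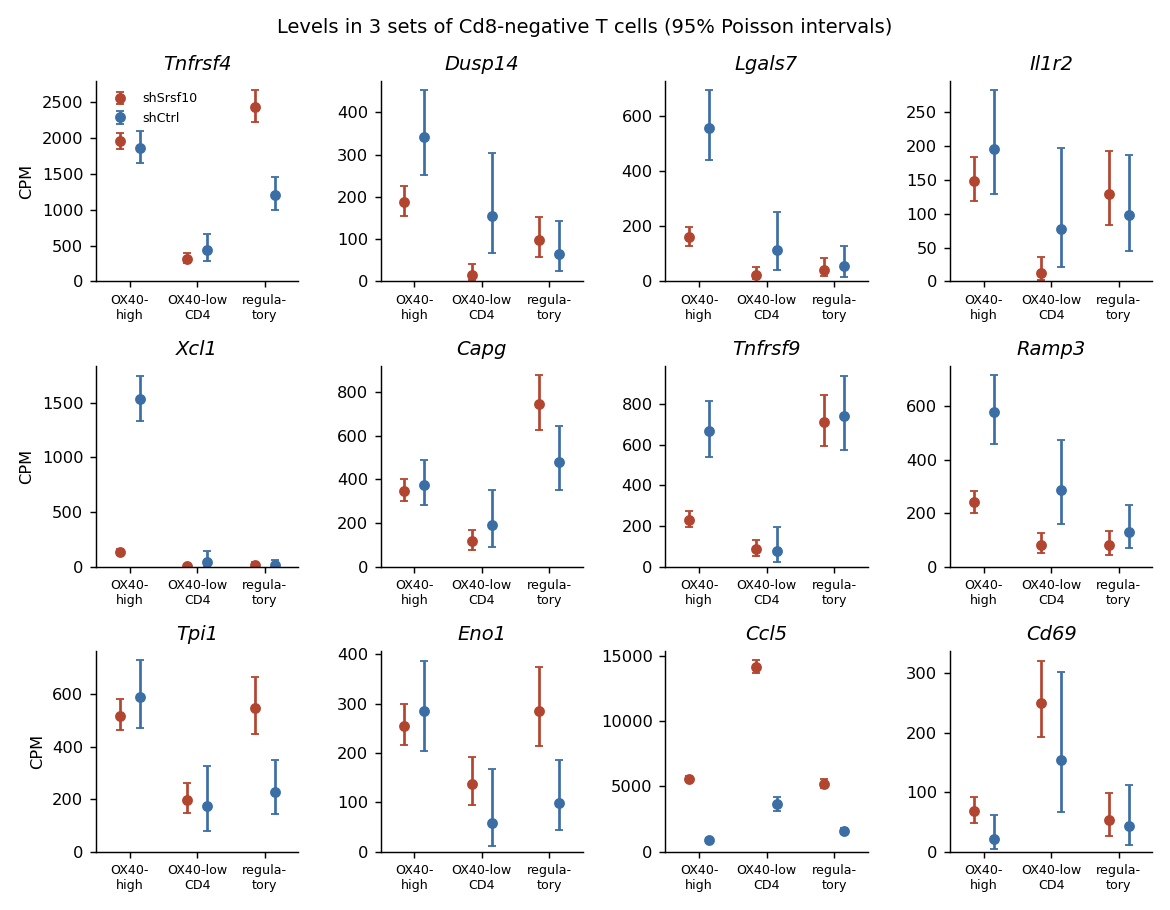
Level (CPM of summed UMIs, y axis) of 12 genes in OX40-high, OX40-low CD4 and regulatory T cells of the shSrsf10 and shCtrl libraries, with bars for 95% Poisson intervals. Dusp14, Lgals7 and Tpi1 are higher in OX40-high than in OX40-low CD4 cells in both libraries and Ccl5 and Cd69 lower, while Il1r2 and Capg have ratios in shCtrl whose intervals include 0.

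Other receptors and ligands of the TNF family were read beside OX40. Tnfrsf9, which encodes the costimulatory receptor 4-1BB, was at 230 CPM in 70 OX40-high cells against 84.8 CPM in OX40-low CD4 cells in shSrsf10. In shCtrl it was at 669 CPM in 26 cells against 76.8 CPM. The ratios were 1.44 (0.77 to 2.18) and 3.12 (1.72 to 5.03), and with Lag3 and Pdcd1 this receptor is often read on antigen-experienced tumour T cells. Tnfrsf18 (GITR) was at 692 CPM against 396 CPM in shSrsf10 and at 731 CPM against 557 CPM in shCtrl, with ratios of 0.81 (0.49 to 1.14) and 0.39 (-0.21 to 1.04). Cd70, the ligand of CD27, was at 49.1 CPM against 16.1 CPM in shSrsf10 and at 188 CPM against 0 of 30 cells in shCtrl.

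Ramp3 and Ramp1, partners that set the ligand choice of calcitonin-family receptors, were both higher in OX40-high cells. Ramp3 was read in 68 cells at 240 CPM against 80.7 CPM in OX40-low CD4 cells in shSrsf10, and in 32 cells at 578 CPM against 288 CPM in shCtrl. Its ratios were 1.57 (0.89 to 2.33) and 1.01 (0.20 to 1.91). Ramp1 had ratios of 3.27 (0.65 to 8.63) and 2.49 (0.52 to 5.60), from 14 OX40-high cells in each library.

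Most measured glycolysis genes stood higher in OX40-high than in OX40-low CD4 cells. Of 16 listed genes, 15 were measured in shSrsf10, of which 10 were at least 1.5-fold higher and 0 at least 1.5-fold lower in OX40-high cells, where 18.5% of all measured genes were that much higher and 16.6% that much lower. In shCtrl 9 were measured, of which 7 were higher and 0 lower, where 22.8% of all genes were higher and 13.4% lower. The median log2 ratio of the list was 0.83 in shSrsf10 and 0.83 in shCtrl, beside 0.01 and 0.12 over all measured genes. With each cell given equal weight, the shCtrl median was 0.42.

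Tpi1 (triose phosphate isomerase) was at 520 CPM in OX40-high cells against 198 CPM in OX40-low CD4 cells in shSrsf10 and at 592 CPM against 173 CPM in shCtrl. Its ratios were 1.39 (0.96 to 1.86) and 1.78 (0.78 to 2.95). Eno1 (enolase) had ratios of 0.90 (0.35 to 1.48) and 2.31 (0.66 to 4.65), and Pgk1 (phosphoglycerate kinase) 0.83 (0.45 to 1.24) and 1.29 (0.37 to 2.35). Between the libraries, their levels in OX40-high cells did not differ beyond counting error, with ratios of shSrsf10 over shCtrl of -0.19 (-0.54 to 0.18), -0.16 (-0.67 to 0.38) and -0.08 (-0.45 to 0.31). Ldha, which turns pyruvate into lactate, was at 1172 CPM in shSrsf10 and 1156 CPM in shCtrl, with ratios of 0.56 (0.33 to 0.80) and 2.01 (1.24 to 2.88) over OX40-low CD4 cells.

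Inhibitory receptors gave different counts in the 2 libraries. In shSrsf10, 7 of 10 measured genes of the inhibitory receptor and exhaustion list were at least 1.5-fold higher and 0 lower (median 0.88). In shCtrl only 4 were measured, of which 1 was higher and 1 lower (median -0.09). Of all measured genes, 18.5% were that much higher and 16.6% lower in shSrsf10, and 22.8% and 13.4% in shCtrl. Pdcd1 (PD-1) was at 237 CPM against 129 CPM in shSrsf10 and at 313 CPM against 96.0 CPM in shCtrl, with ratios of 0.88 (0.31 to 1.48) and 1.71 (0.38 to 3.40). Lag3 had ratios of 1.18 (0.56 to 1.84) and -0.63 (-1.90 to 0.73). The difference between these pairs of ratios was not tested.

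The cytokine Areg (amphiregulin, a tissue repair factor) also differed in its ratio, 3.87 (2.48 to 5.76) in shSrsf10 and -0.53 (-1.65 to 0.67) in shCtrl. In OX40-high cells it was at 235 CPM in shSrsf10 and 146 CPM in shCtrl, a ratio of 0.69 (0.02 to 1.42), and in OX40-low CD4 cells at 16.1 CPM and 211 CPM. Tnfsf11 (RANK ligand) had the same layout, with ratios of 1.81 (0.58 to 3.32) and -0.96 (-2.11 to 0.24). The OX40-low levels rest on few UMIs, with Areg under the minimum for a measured gene between the libraries there. In which of the cell sets the spread lay cannot be told from these values.

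Some effector and early-response genes were lower in OX40-high cells. Ccl5, a chemokine stored by effector and memory T cells, was at 5604 CPM (153 of 186 cells) against 14186 CPM in shSrsf10 and at 878 CPM (18 of 48 cells) against 3628 CPM in shCtrl. The ratios were -1.34 (-1.41 to -1.27) and -2.05 (-2.38 to -1.71). Plac8, which is abundant in interferon-exposed and effector lymphocytes, had ratios of -1.19 and -1.40. In shCtrl it was read in 5 OX40-high cells, and 1 of them held 72% of its UMIs. Ccl5, Plac8, Ppp1r12a, Ankrd11 and Pitpnc1 were the 5 genes at least 2-fold lower in both libraries. Against OX40-low cells taken without the Cd4 requirement, this count was 37.

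Of the cytotoxic list, 11 of 15 genes were measured in shSrsf10, with 1 at least 1.5-fold higher (Cst7) and 5 lower (median -0.58). In shCtrl 4 were measured, with 0 higher and 2 lower, Ccl5 and Nkg7 (median -0.43). Of the genes induced by receptor signalling, 3 of 13 measured were higher and 6 lower in shSrsf10 (median -0.48), and 2 of 7 were higher and 3 lower in shCtrl (median -0.51). Of all measured genes, 18.5% were that much higher and 16.6% lower in shSrsf10, and 22.8% and 13.4% in shCtrl. In shSrsf10 both lists thus had a larger lower share than all genes, though most members did not pass as lower. Cd40lg, the helper signal to B cells and dendritic cells, was at 89.7 CPM in OX40-high cells against 182 CPM in OX40-low CD4 cells in shSrsf10 and at 41.8 CPM against 230 CPM in shCtrl. Its ratios were -1.02 (-1.62 to -0.41) and -2.46 (-4.16 to -0.94). Il2, the growth factor of recently stimulated helper cells, was read in 4 OX40-high cells of shSrsf10 and 0 of shCtrl.

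Genes of antigen presentation and macrophages were also among the 37 higher genes, including Cd74, H2-Eb1, C1qb and Cst3. Cd74 had ratios of 3.23 in shSrsf10 and 4.06 in shCtrl, with 36.0% and 66.7% of its UMIs in 1 cell. Without the cells that held clear RNA of other lineages, 22 genes were at least 2-fold higher in both libraries and 2 lower, and Cd74 in shCtrl had a ratio of -0.79. Those cells, 6 in shSrsf10 and 5 in shCtrl, were themselves chosen by RNA of these kinds, so the change in such genes follows from the choice. Dusp14, Lgals7, Capg, Tnfrsf9 and the glycolysis median kept their direction without those cells.

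**Figure D2:**
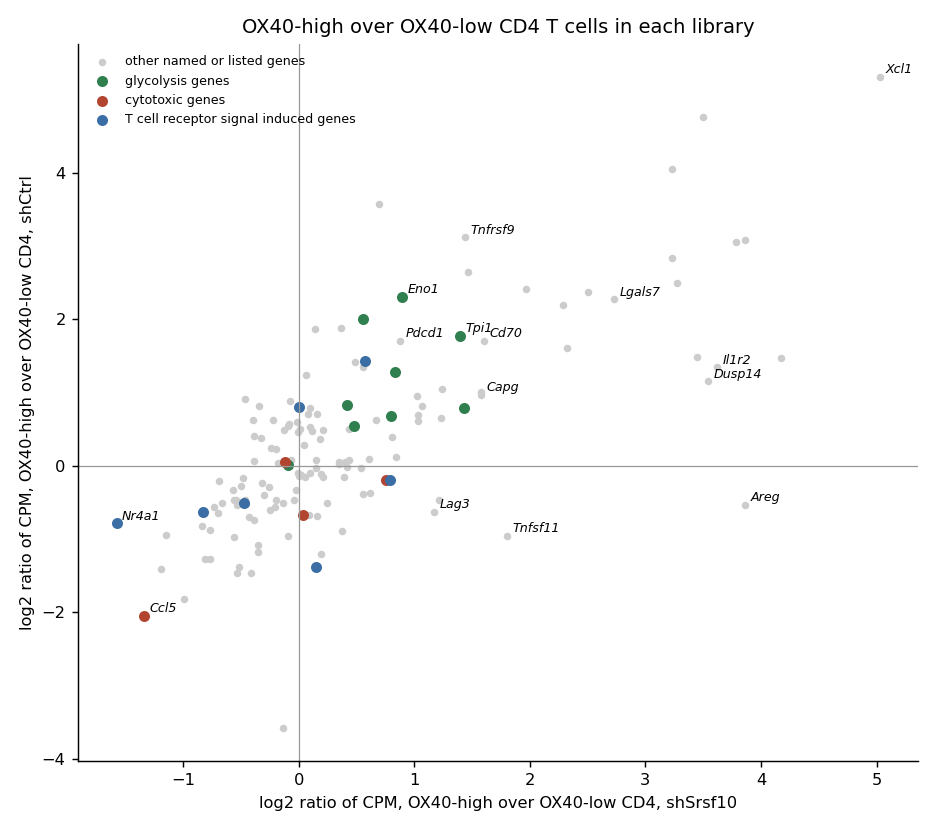
Log2 ratio of CPM, OX40-high over OX40-low CD4 T cells, in shSrsf10 (x axis) and shCtrl (y axis), 1 point per named or listed gene, coloured by list. Most glycolysis genes lie up and to the right, Ccl5 and Nr4a1 down and to the left, and Areg, Tnfsf11 and Lag3 are positive in shSrsf10 and negative in shCtrl.

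The relation to OX40 was also read in steps of Tnfrsf4 UMIs across all conventional T cells without a Cd8 UMI, of which 304, 129, 80, 55 and 51 in shSrsf10 and 74, 33, 20, 21 and 7 in shCtrl had 0, 1 to 2, 3 to 4, 5 to 7 and at least 8 Tnfrsf4 UMIs. Median depth rose along these steps as well, to 3580 UMIs in the highest step of shSrsf10 and 6483 in that of shCtrl, so levels are given as CPM and the part of depth in them was not tested. The 7 cells of the highest shCtrl step are too few to carry a trend.

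Lgals7 went 14.9, 15.3, 68.6, 151 and 242 CPM along the steps in shSrsf10 and 9.60, 195, 280, 451 and 1041 CPM in shCtrl. Ramp3 went 46.6, 91.9, 142, 278 and 293 CPM in shSrsf10 and 182, 240, 448, 595 and 726 CPM in shCtrl. Both genes were highest in the step with the most OX40. Tnfrsf9 did the same, with 314 CPM in the highest step of shSrsf10 and 944 CPM in that of shCtrl, against 70.9 and 134 CPM at 0 Tnfrsf4 UMIs. Other genes did not do so in both libraries. Xcl1 went 192, 68.9, 106, 115 and 165 CPM in shSrsf10 and 768, 60.1, 56.0, 390 and 4794 CPM in shCtrl. Il1r2 went 20.5, 7.66, 158, 96.8 and 178 CPM in shSrsf10 and 9.60, 90.2, 187, 246 and 145 CPM in shCtrl. Tnfrsf18 fell at the highest step, from 786 to 594 CPM in shSrsf10 and from 862 to 726 CPM in shCtrl.

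Ccl5 ran the other way, with 16185, 11286, 8413, 7451 and 2053 CPM in shSrsf10 and 8634, 2976, 785, 1642 and 96.9 CPM in shCtrl. Cd69 was at 235 CPM at 0 Tnfrsf4 UMIs and 17.0 CPM at 8 or more in shSrsf10, and at 182 and 24.2 CPM in shCtrl. Gzmb (granzyme B) showed no such order in shSrsf10, with 774, 594, 496, 738 and 238 CPM. In shCtrl it was at 326 and 60.1 CPM in the first steps and at 0 in all 3 steps of OX40-high cells.

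Cells lay close to the threshold on both sides. The 51 shSrsf10 and 18 shCtrl cells with exactly 2 Tnfrsf4 UMIs lay just outside and the 44 and 13 with exactly 3 just inside. Capg was at 188 CPM just inside and 105 CPM just outside in shSrsf10, and at 145 and 162 CPM in shCtrl. Ccl5 was at 7124 CPM just inside and 12168 CPM just outside in shSrsf10, and at 689 and 2985 CPM in shCtrl. Lgals7 was at 129 CPM just inside and 9.50 CPM just outside in shSrsf10, and at 145 and 231 CPM in shCtrl. These Lgals7 values rest on 1 to 3 cells each, and the shCtrl intervals overlap.

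**Figure D3:**
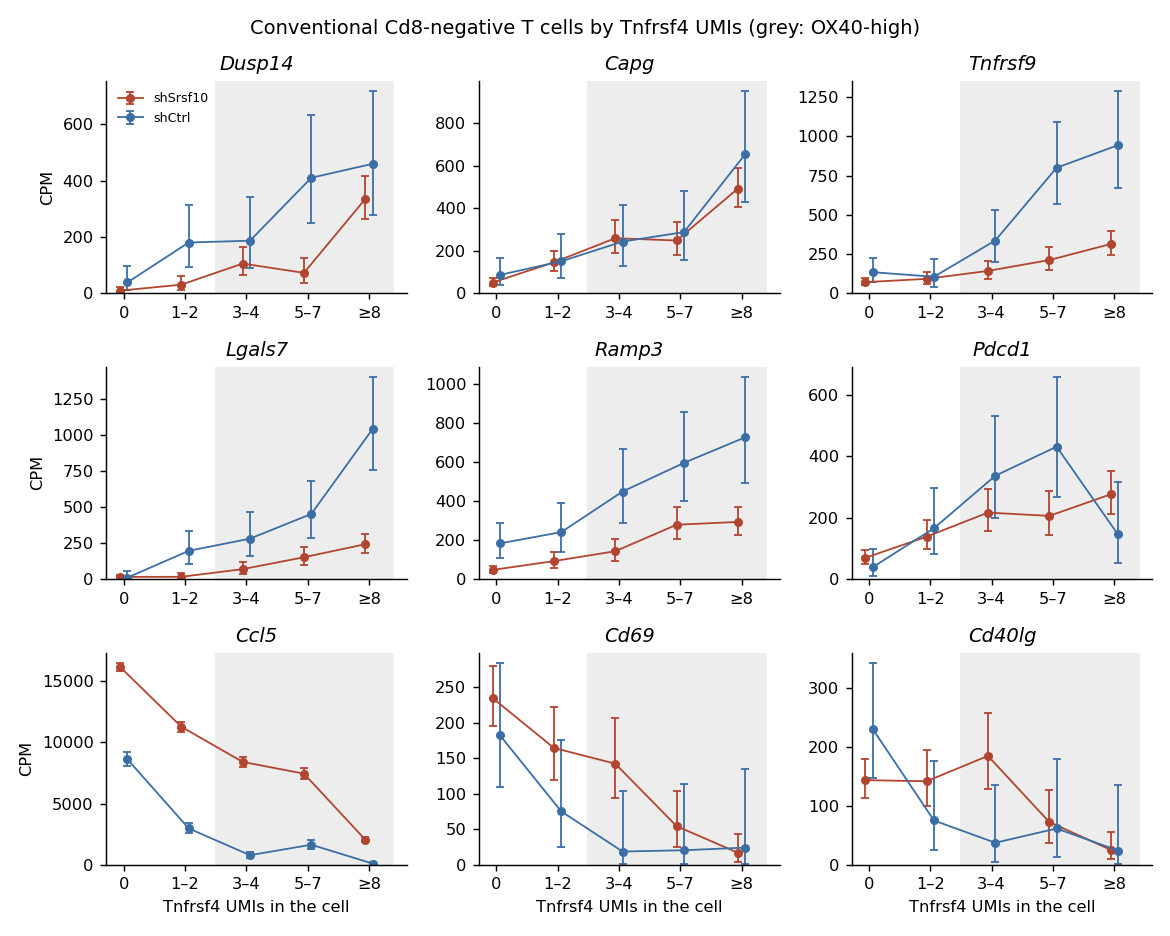
Level (CPM, y axis) of 9 genes in conventional T cells without a Cd8 UMI, by Tnfrsf4 UMIs in the cell (x axis), with the OX40-high steps shaded and 95% Poisson intervals, for shSrsf10 and shCtrl. Lgals7, Ramp3, Tnfrsf9, Dusp14 and Capg are highest at 8 or more Tnfrsf4 UMIs in both libraries, and Ccl5 and Cd69 are highest at 0.

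Some of the genes that mark OX40-high cells were read together. In shSrsf10, Cd70 was read in 8 of 14 cells with Xcl1 and in 9 of 172 without, and in shCtrl in 5 of 9 with and 6 of 39 without. Dusp14 was read in 14 of 17 shSrsf10 cells with Cd70 and 24 of 169 without, and in 8 of 11 and 10 of 37 in shCtrl. Capg was read in all 13 shSrsf10 cells with Ccl1, a chemokine for CCR8-bearing cells, and in 60 of 173 without, and in 8 of 10 and 13 of 38 in shCtrl. These pairings were picked after their values were seen, and others went the other way. Il1r2 was read in 7 of 14 shSrsf10 cells with Xcl1 and 27 of 172 without, but in 2 of 9 and 13 of 39 in shCtrl.

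Cells holding these transcripts were deeper. Median depth was 5175.5 UMIs with Xcl1 and 2443 without in shSrsf10, and 3525 and 2035 in shCtrl. With Cd70 it was 5485 against 2366 UMIs in shSrsf10 and 4152 against 1893 in shCtrl. Deeper cells show more of any transcript, and the part of depth in the pairings was not tested. Gzmb was different in shSrsf10, with 2595 UMIs in holders and 2483.5 in the others. Among the 60 cells with Gzmb, Dusp14 was read in 5 and Xcl1 in 1, against 33 and 13 of the 126 without it. The shares were closer for Capg, at 31.7% with and 42.9% without Gzmb, and for Lgals7, at 6.67% and 8.73%.

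By helper program, 111 of 186 cells in shSrsf10 (59.7%) and 24 of 48 in shCtrl (50.0%) held a UMI of Ifng, Tbx21 or Cxcr3, genes of Th1 cells, with intervals of 52.3% to 66.8% and 35.2% to 64.8%. The share was 67.8% and 43.3% in OX40-low CD4 cells and 54.0% and 32.4% in regulatory cells, so it did not set the OX40-high cells apart. The Th2 cytokines Il4, Il5 or Il13 were read in 6 of 186 cells in shSrsf10 (3.23%) and 4 of 48 in shCtrl (8.33%). The follicular helper genes Cxcr5, Il21 or Bcl6 were read in 21 cells of shSrsf10 (11.3%) and 5 of shCtrl (10.4%). Single cells could still dominate such a transcript. All 35 Il4 UMIs of shSrsf10 lay in 1 cell, the 38 of shCtrl in 2 cells, and 62 Il22 UMIs of shSrsf10 in 2 cells.

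Regulatory T cells of the same tumours, chosen by Foxp3 or by Ikzf2 with Ctla4, are the other cells that carry OX40. They numbered 50 in shSrsf10 and 34 in shCtrl, and 40 (80.0%) and 16 (47.1%) of them had at least 3 Tnfrsf4 UMIs. Of 1475 genes measured in both libraries, 33 (2.24%) were at least 2-fold higher in OX40-high cells than in regulatory cells in both libraries and 15 (1.02%) at least 2-fold lower in both. Foxp3, Ikzf2 and Ctla4 were used by the rule and are not counted. A UMI of Ikzf2, Il2ra or Ctla4, genes that activated helper cells also express, was still read in 112 of 186 OX40-high cells in shSrsf10 (60.2%) and 19 of 48 in shCtrl (39.6%). How many of these were regulatory cells whose Foxp3 was missed was not tested.

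Ramp3 was higher in OX40-high than in regulatory cells by log2 ratios of 1.57 (0.80 to 2.45) in shSrsf10 and 2.14 (1.26 to 3.15) in shCtrl. Lgals7 was higher by 1.90 (0.86 to 3.15) and 3.35 (2.07 to 5.01), and Tnfsf8, the CD30 ligand, by 1.35 (0.35 to 2.53) and 2.21 (1.13 to 3.49). Ifng, the Th1 cytokine, was at 559 CPM in OX40-high cells against 173 CPM in regulatory cells in shSrsf10 and at 307 CPM against 142 CPM in shCtrl. Its ratios were 1.70 (1.17 to 2.27) and 1.11 (0.19 to 2.13). Bhlhe40, a factor that restrains Il10 in helper cells, had ratios of 1.02 (0.57 to 1.51) and 1.13 (0.36 to 1.98).

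Il10, a suppressive cytokine, was at 22.0 CPM in 6 OX40-high cells of shSrsf10 and read in 0 of 48 in shCtrl, against 394 and 295 CPM in regulatory cells. Izumo1r, the folate receptor FR4 of regulatory and anergic cells, had ratios of -1.81 (-2.24 to -1.38) and -1.46 (-2.25 to -0.70). Maf had ratios of -1.10 (-1.71 to -0.47) and -2.19 (-3.39 to -1.11). Gzmb was at 461 CPM against 1327 CPM in shSrsf10 and at 0 UMIs against 754 CPM in shCtrl. These genes, which the rule did not use, were among those lower in OX40-high cells than in regulatory cells in both libraries, and they are named for their values. Capg went the other way to Lgals7, with ratios of -1.09 (-1.41 to -0.77) and -0.35 (-0.96 to 0.25). Il1r2 was read in 18.3% of OX40-high and 22.0% of regulatory cells in shSrsf10, and in 31.25% and 14.7% in shCtrl. Tnfrsf9 was at least 1.5-fold lower in OX40-high than in regulatory cells in shSrsf10 and was not called in shCtrl.

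The whole list of regulatory T cell genes was mixed. Over regulatory cells in shSrsf10, 9 of 18 were measured, with 5 at least 1.5-fold lower and 1, Nrp1, higher (median -0.67), where 15.8% of all measured genes were that much lower and 14.3% higher. In shCtrl 5 were measured, with 2 lower and 1, Tgfb1, higher (median -0.50), where 17.7% of all genes were lower and 19.5% higher. Over OX40-low CD4 cells, 18.5% of all measured genes were 1.5-fold higher and 16.6% lower in shSrsf10, and 22.8% and 13.4% in shCtrl. Of the same list in shSrsf10, 4 of 6 measured genes, Ebi3, Nrp1, Izumo1r and Tnfrsf18, were at least 1.5-fold higher and 0 lower (median 0.83). In shCtrl 1 of 4, Tgfb1, was higher and 0 lower (median 0.26). Izumo1r thus lay between the OX40-low CD4 and the regulatory cells in shSrsf10, at 152 CPM in OX40-high cells against 84.8 and 534 CPM. There 1 OX40-high cell held 25.6% of its UMIs, and in shCtrl Izumo1r was not called against OX40-low CD4 cells. Genes induced by receptor signalling stood higher than in regulatory cells in 5 of 12 measured in shSrsf10, with 2 lower (median 0.53), and in 5 of 7 in shCtrl, with 0 lower (median 1.35). Glycolysis genes stood higher than in regulatory cells in 2 of 15 measured in shSrsf10, with 2 lower (median -0.16). In shCtrl 7 of 10 glycolysis genes were higher and 1 lower (median 0.79).

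Between the OX40-high cells of the 2 libraries, 435 of 3722 measured genes (11.7%) were at least 2-fold higher in shSrsf10 and 287 (7.71%) at least 2-fold lower. At 1.5-fold, 842 (22.6%) were higher and 672 (18.1%) lower, with an all-gene median of 0.03. Many of these ratios come from few UMIs. The lists with the highest medians in shSrsf10 were cytotoxic genes and the interferon lists, and the markers of the OX40-high cells themselves were level or lower.

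Gzmb, the main killing protease of lymphocyte granules, had 272 UMIs in 60 of 186 OX40-high cells in shSrsf10 (461 CPM, 407 to 519) and was read in 0 of 48 cells in shCtrl, which allows a share of up to 6.25% of cells with a UMI. Against a floor of 3 UMIs over the shCtrl cells, the level was at least 22.0-fold higher in shSrsf10. Thinned to 1000 UMIs, 19.0% of OX40-high cells in shSrsf10 had a Gzmb UMI and 1.07% of epithelial cells there, whose median depth was 26420.5 UMIs against 2535. Before thinning, 6.35% of those epithelial cells had a Gzmb UMI. Cells with a Cd4 UMI held 503 CPM and cells without one 383 CPM, so the transcript was read in cells with Cd4 as well. It was higher in shSrsf10 in OX40-low CD4 cells too, at 686 CPM against 76.8 CPM, and stood at 1327 CPM against 754 CPM in regulatory cells. By share of cells, Gzmb was read in 44 of 121 OX40-low CD4 cells in shSrsf10 and 3 of 30 in shCtrl. In regulatory cells the share went the other way, with 24 of 50 (48.0%) in shSrsf10 and 19 of 34 (55.9%) in shCtrl.

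Ccl5 was at 5604 CPM (5415 to 5798) in shSrsf10 and 878 CPM (731 to 1045) in shCtrl, a log2 ratio of 2.67 (2.42 to 2.94). After thinning, 69.3% of OX40-high cells in shSrsf10 and 31.9% in shCtrl had a Ccl5 UMI, against 5.55% and 0.674% of epithelial cells. Before thinning, 35.4% and 2.67% of the deeper epithelial cells had a Ccl5 UMI. Ctsw (a granule cathepsin) was at 237 CPM in shSrsf10 and 55.7 CPM in shCtrl, with a ratio of 2.09 (1.07 to 3.33). Nkg7, a granule membrane protein, was at 2245 CPM in shSrsf10 and 1344 CPM in shCtrl, with a ratio of 0.74 (0.52 to 0.97).

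In all, 10 of 15 cytotoxic genes were measured, 8 were at least 1.5-fold higher in shSrsf10 and 0 lower. The median was 1.63, with genes at 0 in shCtrl taken at the floor. Among all measured genes, 22.6% were that much higher and 18.1% lower. Prf1 (perforin), which granzymes need to enter a target cell, had 3 UMIs in each library and was not measured by this rule. The same list had medians of 1.34 in OX40-low CD4 cells and 0.61 in regulatory cells. A higher median was thus also present in these sets, and whether it differed between the sets was not tested. Other T cells were not compared.

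Interferon-induced genes were higher in the same way. Of the type I interferon list, 11 of 22 genes were measured, 7 were at least 1.5-fold higher in shSrsf10 and 0 lower (median 1.21). Of the interferon gamma list, 11 of 18 were measured, 8 were higher and 1, Socs1, lower (median 0.95). Among all measured genes, 22.6% were higher and 18.1% lower. The type I median was 1.28 in OX40-low CD4 cells and 0.75 in regulatory cells, and the interferon gamma median 0.90 and 0.67. Epsti1 was at 322 CPM in shSrsf10 and 62.7 CPM in shCtrl, a ratio of 2.36 (1.40 to 3.51). Zbp1, a sensor of left-handed nucleic acids, was at 171 CPM (60 cells) in shSrsf10 and 27.9 CPM (4 cells) in shCtrl, a ratio of 2.62 (1.22 to 4.52). Gbp2, a guanylate-binding protein, had 67 UMIs in 40 cells of shSrsf10 and 1 UMI in shCtrl, a ratio of 4.03 with an interval of 1.5 to 9.35.

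Epithelial cells held more of these 3 genes in shSrsf10 as well. After thinning, 6.21% of epithelial cells in shSrsf10 and 1.80% in shCtrl had a Zbp1 UMI, against 16.8% and 8.51% of OX40-high cells. For Gbp2 it was 4.58% and 0.492% of epithelial cells, against 8.94% and 0% of OX40-high cells. For Epsti1 it was 0.735% and 0.0843%, against 27.9% and 4.26%. Before thinning, the deeper epithelial cells had a Zbp1 UMI in 58.8% and 20.8%, Gbp2 in 36.5% and 4.66% and Epsti1 in 4.98% and 0.758%. Free RNA and expression by the epithelial cells cannot be told apart in these shares, and the part of free RNA in the 3 ratios was not tested. Isg15, a standard interferon response gene, was at 525 CPM in shSrsf10 and 669 CPM in shCtrl (-0.35, with an interval from -0.68 to just under 0), so the list did not move as one.

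Th1 genes followed. Of 10 measured, 6 were at least 1.5-fold higher in shSrsf10 and 0 lower, with a median of 0.73. Among all genes measured in OX40-high cells, 22.6% were higher and 18.1% lower. The Th1 median was 0.85 in OX40-low CD4 cells and 0.43 in regulatory cells. Ifng was at 559 CPM (500 to 622, 72 cells) in shSrsf10 and 307 CPM (223 to 411, 15 cells) in shCtrl, a ratio of 0.87 (0.41 to 1.35). After thinning, 20.1% of OX40-high cells in shSrsf10 and 12.8% in shCtrl had an Ifng UMI, against 0.332% and 0.0281% of epithelial cells. Before thinning, the epithelial shares were 2.84% and 0.183%. Il12rb2, the signalling chain for interleukin-12, had a ratio of 1.37 (0.17 to 2.87), Cxcr6 of 0.78 (0.31 to 1.28) and Cxcr3 of 0.83 (-0.04 to 1.84). Ly6c2, which effector and memory T cells share with monocytes, was at 183 CPM in 38 cells of shSrsf10 and read in 0 cells of shCtrl. Summed monocyte markers, which include Ly6c2, were at 845 CPM in shSrsf10 and 320 CPM in shCtrl.

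Costimulatory receptors and homing genes were mixed. Cd27 was at 151 CPM in shSrsf10 and 41.8 CPM in shCtrl (1.85, 0.67 to 3.33), Icos at 469 and 223 CPM (1.07, 0.54 to 1.65) and Cd28 at 244 and 118 CPM (1.04, 0.31 to 1.86). Tnfrsf9 was lower in shSrsf10, at 230 CPM against 669 CPM, a ratio of -1.54 (-1.93 to -1.15). Ltb (lymphotoxin beta) was at 564 CPM in shSrsf10 and 195 CPM in shCtrl, and Tnfsf8 at 124 CPM in shSrsf10 and 404 CPM in shCtrl, with ratios of 1.53 and -1.71. Itgb7, the gut-homing integrin chain, was at 178 and 20.9 CPM (3.09, 1.5 to 5.39), while Itgav, which pairs in receptors for extracellular matrix and latent TGF-beta, was at 74.5 and 383 CPM (-2.36, -2.97 to -1.76). Satb1, a chromatin organiser of T cell development, was at 185 and 27.9 CPM (2.73, 1.33 to 4.63).

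**Figure D4:**
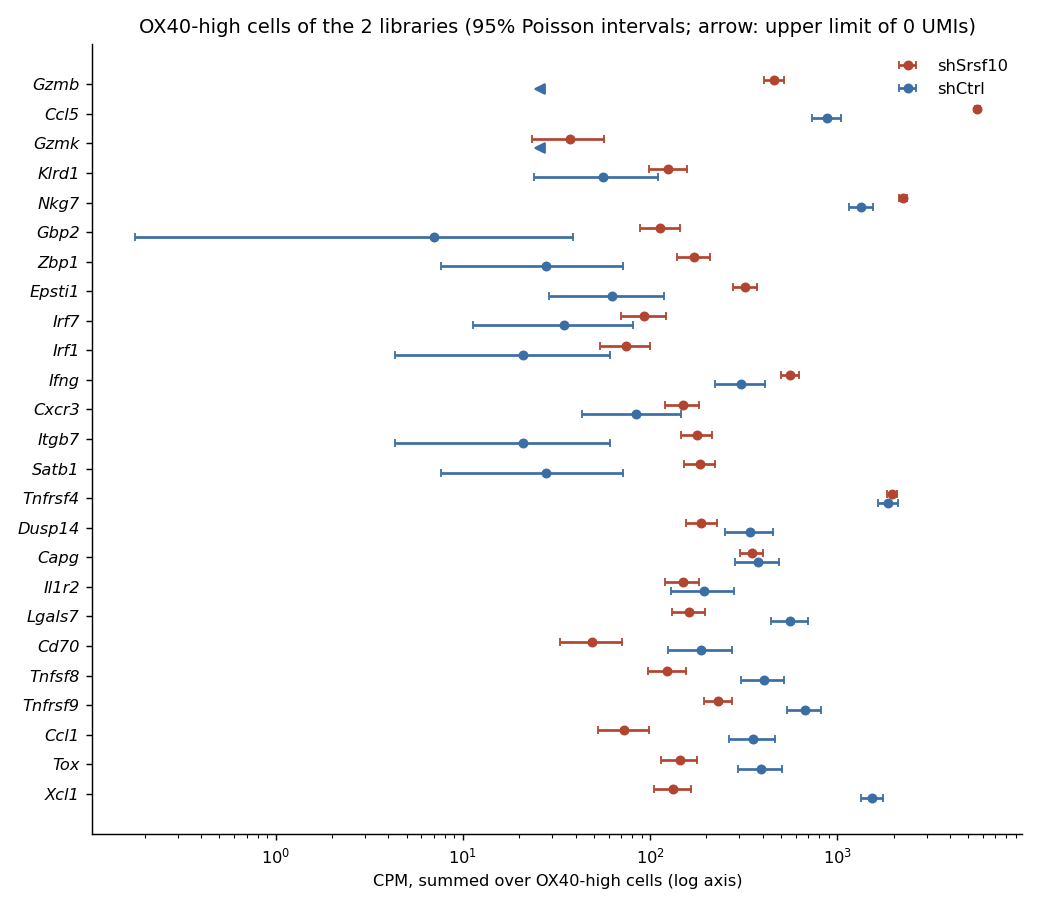
CPM (log x axis) of selected genes summed over OX40-high cells of shSrsf10 and shCtrl, with 95% Poisson intervals and an arrow at the upper limit where no UMI was read. Gzmb, Ccl5 and the interferon genes are higher in shSrsf10, Tnfrsf4 and Capg are level, and Lgals7, Cd70, Tnfsf8, Tnfrsf9, Ccl1, Tox and Xcl1 are lower.

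The markers of the OX40-high cells divided. Capg (349 CPM in shSrsf10 and 376 CPM in shCtrl, -0.11, -0.55 to 0.35) and Il1r2 (149 and 195 CPM, -0.39, -1.02 to 0.28) did not differ beyond counting error. Dusp14 was lower in shSrsf10, at 188 against 341 CPM (-0.86, -1.36 to -0.35), and so was Lgals7, at 161 against 557 CPM (-1.79, -2.24 to -1.35). Ramp3 was at 240 CPM in shSrsf10 and 578 CPM in shCtrl (-1.27, -1.67 to -0.86). Ramp3 was lower in shSrsf10 in OX40-low CD4 cells too, with a ratio of -1.83 (-2.87 to -0.76). Dusp14 had only 4 and 8 UMIs in those cells and Lgals7 6 and 6, under the minimum for a measured gene.

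Xcl1 was at 132 CPM in shSrsf10 and 1533 CPM in shCtrl, a ratio of -3.54 (-3.93 to -3.16). Leaving out its richest cell in each library gave 94.0 and 583 CPM and a ratio of -2.63 (-3.16 to -2.12). By share of cells, 7.53% held Xcl1 in shSrsf10 and 18.8% in shCtrl, or 3.35% and 6.38% after thinning, against 0.284% and 0.0702% of epithelial cells. Before thinning, the epithelial shares were 1.35% and 0.253%. Ccl1 was at 72.8 CPM in 13 cells of shSrsf10 and 355 CPM in 10 cells of shCtrl (-2.29, -2.91 to -1.67). Of 16 measured cytokine and chemokine genes, 5 were at least 1.5-fold higher in shSrsf10 and 6 lower, so this list had no single direction. Among all measured genes, 22.6% were higher and 18.1% lower.

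Tox, a factor of chronically stimulated T cells, was at 144 CPM in shSrsf10 and 390 CPM in shCtrl (-1.44, -1.94 to -0.93), and Nr4a3 at 81.3 and 202 CPM (-1.31, -2.01 to -0.60). Of 10 measured inhibitory and exhaustion genes, 4 were at least 1.5-fold lower in shSrsf10 and 2, Lag3 and Entpd1, higher (median -0.20). Among all measured genes, 18.1% were that much lower and 22.6% higher. Pdcd1 was at 237 CPM in shSrsf10 and 313 CPM in shCtrl (-0.40, -0.90 to 0.11). Apoe, a hepatocyte and macrophage gene, was at 230 and 906 CPM (-1.98) and Spp1 at 47.4 and 306 CPM (-2.69), in the same direction as the summed epithelial and macrophage markers given above. Their part in other lower genes was not tested.

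Glycolysis genes had no common direction between the libraries in OX40-high cells. The median of 15 measured genes was 0.01, with 2 at least 1.5-fold higher in shSrsf10 and 3 lower. In regulatory cells the same list had a median of 1.07, with 10 of 11 measured genes higher and 1 lower in shSrsf10, where 25.4% of all measured genes were higher and 17.1% lower. Genes of NF-kappaB signalling, which OX40 engages, had a median of 0.04 in OX40-high cells, with 2 of 14 higher and 1 lower. Genes induced by antigen receptor signalling had a median of 0.00, with 2 of 11 higher and 3 lower. For all genes measured in OX40-high cells, 22.6% were higher and 18.1% lower at 1.5-fold. In OX40-low CD4 cells the NF-kappaB list had a median of 0.71, with 7 of 13 higher and 0 lower. The receptor-induced list there had a median of 0.69, with 7 of 12 higher and 3 lower. Of all genes measured in those cells, 27.7% were higher and 18.7% lower. In regulatory cells the 2 medians were 0.37 and 0.57. Whether the sets differed was not tested.

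**Figure D5:**
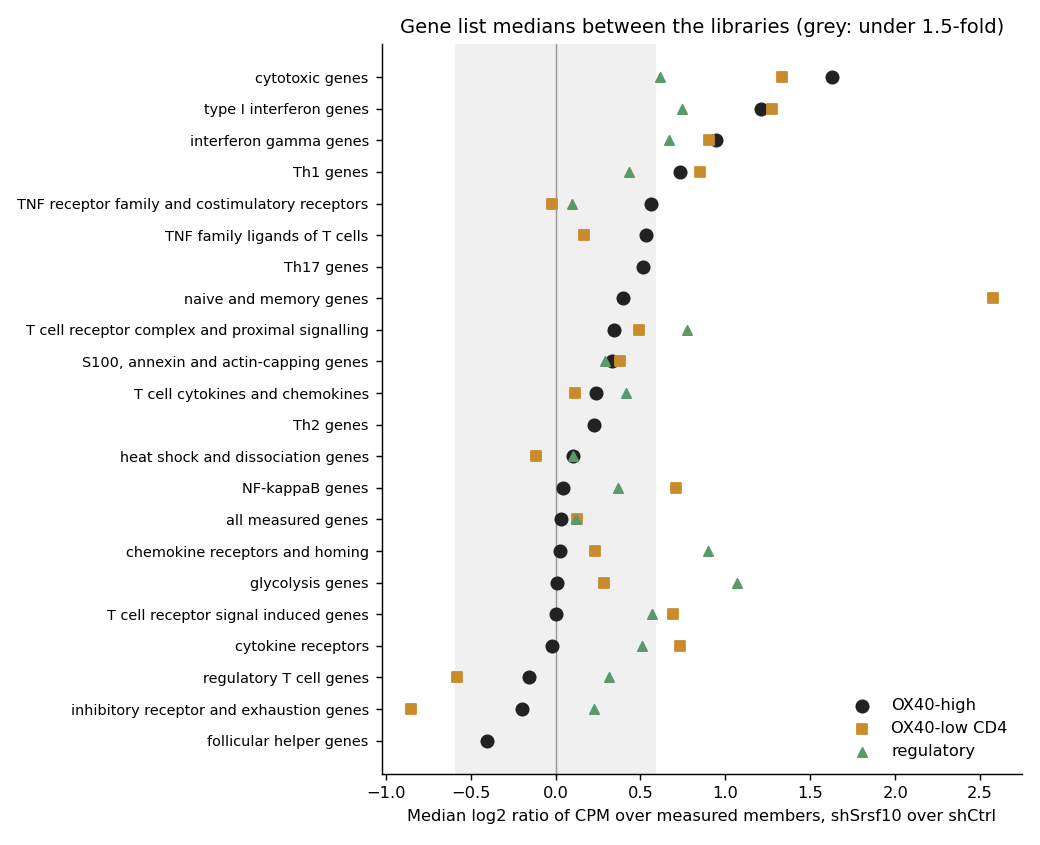
Median log2 ratio of CPM (x axis), shSrsf10 over shCtrl, of each gene list in OX40-high, OX40-low CD4 and regulatory T cells; the shaded band is under 1.5-fold. In OX40-high cells the cytotoxic list is at 1.63 and the interferon lists at 1.21 and 0.95, while glycolysis and receptor-induced lists lie at 0.01 and 0.00.

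One constant region also separated the libraries. Trbc1, a constant region of the T cell receptor beta chain, was at 1459 CPM in 123 OX40-high cells of shSrsf10 and 320 CPM in 15 of shCtrl (2.19, 1.76 to 2.65). In shCtrl 1 cell held 32.6% of its UMIs. Trbc1 was at least 1.5-fold higher in shSrsf10 in OX40-low CD4 and regulatory cells too, so this was not particular to OX40-high cells. Trbc2 was under 1.5-fold apart in OX40-high and OX40-low CD4 cells and at least 1.5-fold higher in shSrsf10 in regulatory cells. Trbc1 and Trbc2 are near-identical copies whose reads can be split between them in counting, so this value is uncertain.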

How the data were processed

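The authors deposited raw UMI counts of 32245 features in every barcode, made with Cell Ranger 6.1.0 on mm10 per the submitters' processing notes. Barcodes with at least 200 genes, at most 20% mitochondrial UMIs, and at most 1 Krt8 and Krt18 UMI or under 0.1% of UMIs, were kept. Cell sets were cut by UMI thresholds, with no clustering. UMIs were summed per set and library and given as CPM with exact Poisson intervals. Log2 ratios have exact conditional binomial intervals, shares Clopper-Pearson intervals and share differences Newcombe intervals, all at 95%. With 1 library per group no test was possible. Interval code was tested on simulated data. Genes with at least 20 UMIs over both arms counted as measured. A gene was called at 2-fold, and at 1.5-fold within lists. Genes of the membership rule are never counted, nor is Cd4 against OX40-low CD4 cells. A group with 0 UMIs was given a floor of 3 over the group.

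Cells, markers and the 21 gene lists were chosen with earlier results of these data known. Named genes are the 6 label markers, the 10 highest and 10 lowest genes of each comparison with at least 50 UMIs, 100 CPM and 5 cells, and leading members of each list. Cd69, Trac, Srsf10, Tnfsf8, the genes behind counts of 5 or fewer and the genes of the steps were named after their values were seen. Scrublet (scanpy 1.11.5) scored doublets; its automatic threshold marked 0 shCtrl barcodes, so removing the highest scores, 0.8% per 1000 barcodes, was an alternative only. Tools were Python 3.11.15, numpy 2.4.6, scipy 1.17.1, pandas 2.3.3 and matplotlib 3.10.9. The alternatives were other thresholds, normalizations, minimums and cell sets.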

Additional observations from a re-analysis of the deposited data

Results flagged for a closer look

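For 8 genes the ratio of OX40-high cells to another T cell set had opposite signs in the 2 libraries, with both intervals on their own side of 0. The difference between the libraries was not tested. Over regulatory cells, Ctsw had log2 ratios of 1.37 in shSrsf10 and -1.74 in shCtrl, Ccl5 of 0.11 and -0.84, Cxcl10 of -1.54 and 1.08, and Cotl1 of -0.38 and 0.76. The glycolysis genes Ldha and Pgk1 had ratios of -0.31 and -0.34 in shSrsf10, against 0.62 and 1.47 in shCtrl. Lgals3 had -0.30 in shSrsf10 and 1.86 in shCtrl, where 1 OX40-high cell held 87.9% of its UMIs. Over OX40-low CD4 cells, Trbc1 had 0.37 in shSrsf10 and -0.89 in shCtrl.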

How the results depend on the processing

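The share of cells, and the comparisons between libraries and with OX40-low CD4 cells, were recomputed under other thresholds, minimums, normalizations and cell sets. The comparison with regulatory cells, the Tnfrsf4 steps, the pairings of transcripts and the helper-program shares were not. Of 716 values of list medians, 653 kept their side of 1.5-fold, 62 crossed it and 1 reversed. Of 1241 values of single genes, 1173 stayed within the counting interval of the main value, 61 left it and 7 reversed. A sign change counted as reversed only where the main value was at least 1.5-fold for medians or 2-fold for genes. Smaller medians could change sign, as for naive and memory genes between libraries (-0.61 to 1.31). The gene counts, share and cytotoxic, interferon and glycolysis medians of main interest were counted apart, and 106 values stayed and 17 moved. The cytotoxic median between libraries ran from 1.17 to 1.97, the type I interferon median from 0.87 to 1.24 and the interferon gamma median from 0.63 to 1.43. The share of OX40-high cells was lower in shSrsf10 under the 7 alternatives tried, with differences of -7.35 points (13.8% against 21.2%) with cells thinned, -2.88 points at 4 Tnfrsf4 UMIs and -0.92 points with conventional Cd8-negative cells as the denominator.

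Counts of genes depended on the minimum. Between libraries, 792 genes were higher and 2223 lower with no minimum, and 134 and 63 with at least 50 UMIs. Over OX40-low CD4 cells, 74 were higher in both libraries with no minimum, 14 with at least 50 UMIs and 22 without cells holding RNA of other lineages. The lower count was 255 with no minimum, 1 with at least 50 UMIs, 1 with a mean over cells, 8 with a median of ratios, 9 with at least 2 Tnfrsf4 UMIs and 8 with at least 4. It was 37 without the Cd4 requirement, 9 against cells with Tnfrsf4 at 0, and 2 without cells holding RNA of other lineages. A mean over cells of CPM gave a shCtrl glycolysis median of 0.42. The follicular helper median in shCtrl was -0.46 with no minimum. Without the Cd4 requirement, Xcl1 in shSrsf10 was -0.20, and H2-Eb1 and Cd74 in shCtrl were -0.34 and -0.23. Without cells holding RNA of other lineages, which was chosen after the data were seen, H2-Eb1 was -0.41 in shSrsf10 and -0.21 in shCtrl, Cst3 in shSrsf10 -0.042 and Cd74 in shCtrl -0.79. Causes were not tested.

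No paired analysis was possible because each group is 1 library. Depth limits what can be said. The 48 shCtrl OX40-high cells put the 3-UMI floor at 20.9 CPM, and the 30 shCtrl OX40-low CD4 cells at 57.6 CPM, so genes low in shCtrl are poorly bounded. A missing Cd8 or Foxp3 UMI at this depth does not show that the transcript was absent.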
